A study of Mus musculus with 8 samples.

Results

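Lysosome, proton pump and autophagy genes were followed by RNA sequencing in the mouse squamous carcinoma cell line A223. The set was fixed by gene symbol and holds 45 of the 24411 genes in the count files: 3 transcription factors, 13 genes of the vacuolar proton pump, 11 hydrolases and other luminal proteins, 6 membrane proteins and 12 autophagosome genes. The 4 groups were PRDX6 knockdown (KD) cells with 100 nM largazole at 18 h, parental cells with 100 nM largazole at 18 h, KD cells with DMSO at 0 h and parental cells with DMSO at 0 h, with 2 replicate libraries each. Largazole is a natural-product inhibitor of class I histone deacetylases, and the PRDX6 protein detoxifies peroxides, among them those of membrane phospholipids. DMSO is the solvent. Drug and time changed together between the largazole and DMSO groups. KD cells were set against parental cells, and cells with a non-targeting construct were not analysed here. The labels name neither the knockdown construct nor whether the KD cells are a clone or a pool.

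Lysosomes are acidified by the vacuolar proton pump, whose membrane sector, V0, carries protons and whose cytosolic sector, V1, hydrolyses ATP. Acid pH activates the cathepsins and glycosidases that degrade proteins, glycans and lipids delivered by endocytosis or by autophagosomes, the double-membrane vesicles built by the autophagy proteins. Many of these genes are known targets of the related transcription factors TFEB, TFE3 and MITF, which bind short E-box sites with the core CACGTG and whose activity is set largely by phosphorylation and nuclear entry.

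Library totals lay between 13020492 and 15613216 estimated counts, and levels are given as CPM, counts relative to a library size scaled by the TMM method. Prdx6, the targeted gene, had 81.1 and 64.9 CPM in KD cells against 257 and 233 CPM in parental cells under largazole (log2 fold change -1.75 ± 0.11, SE, adjusted p = 1.76e-05), and 86.6 and 79.2 CPM in KD cells against 297 and 283 CPM in parental cells in DMSO (-1.81 ± 0.11, adjusted p = 1.41e-05, edgeR's quasi-likelihood test). All 4 KD libraries lay below all 4 parental ones. Of 14 markers of squamous and basal keratinocytes, 8 in KD largazole, 7 in parental largazole and 5 in either DMSO group averaged at least 1 CPM. Their summed level was 1881 to 2074 CPM with largazole against 2683 to 2761 CPM with DMSO in KD cells, and 1715 to 1800.2 CPM with largazole against 2514 to 2651 CPM with DMSO in parental cells, and the part of this lower sum in the largazole values was not tested. The epithelial keratins Krt8 and Krt18, which are among the 14 and count in this sum, were high, at 1006 to 2267 and 94.8 to 183 CPM. By contrast the basal keratin Krt5 held at most 0.312 CPM. Trp63, a basal-cell transcription factor, was at 0 in all 4 DMSO libraries. Fibroblast markers, with 6 of 7 at 1 CPM or more in each group, summed to 3667 to 4168 CPM in KD cells against 3244 to 3297 CPM in parental cells under largazole, and to 3991 to 4067 CPM in KD cells against 2900.3 to 2909 CPM in parental cells in DMSO. The KD largazole replicates differed most. The SD of replicate 1 minus replicate 2 on the log2 scale, over the genes of the set averaging at least 5 CPM in the group, was 0.25 there (45 genes), against 0.08 to 0.12 in the other groups (43 or 44 genes). The median gene was higher by 0.21 in KD largazole replicate 1 than in replicate 2. The precursor of ribosomal RNA, Rn45s, varied within groups as well, with 23915 and 742 CPM with largazole against 9963 and 2549 CPM with DMSO in KD cells. In parental cells Rn45s had 7739 and 949.8 CPM with largazole against 1353 and 1212 CPM with DMSO. With Rn45s removed before scaling 33 genes of the set passed under largazole in KD and 34 in parental cells, beside the 32 and 34 reported next. Of all genes tested 48.3% and 49.7% passed in that setting.

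All 45 genes had enough reads to be tested, the lowest count in any library being 48, for Tfeb. Under largazole most of them were higher, in both genotypes. In KD cells 32 rose and 0 fell (71.1%), where 48.2% of all 12517 genes tested passed the threshold of an adjusted p of 0.05, 25% higher and 23.2% lower. Counts at an unadjusted p under 0.05 were 34 in KD and 34 in parental cells, beside 54.8% and 56.3% of all genes. In parental cells 31 rose and 3 fell (75.6%), where 49.6% of all genes passed, 26.9% higher and 22.7% lower. The median log2 fold change of the 45 genes was 0.45 in KD and 0.43 in parental cells, beside 0.01 and 0.03 over all genes tested. The share of these genes that rose thus lay above the share among all genes in each genotype, a description that carries no test of the set. In bulk RNA fewer cells of a type and less RNA per cell cannot be told apart. Both largazole libraries lay above both DMSO libraries for 34 genes and below for 2 in KD cells (80%, beside 69.5% of all genes tested without overlap in either direction). In parental cells the counts were 37 above and 4 below (91.1%, beside 81%). The 2 responses were measured on separate libraries. Across the 45 genes their log2 fold changes had a Pearson r of 0.979 and a Spearman rho of 0.953, given as a description since genes are not independent replicates, beside 0.885 and 0.885 over all genes tested. In the same direction in both genotypes 30 genes passed (66.7%, beside 39.2% of all genes). When single libraries were left out the number of these genes called moved in both genotypes, and so did the share of all genes called.

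**Figure D1:**
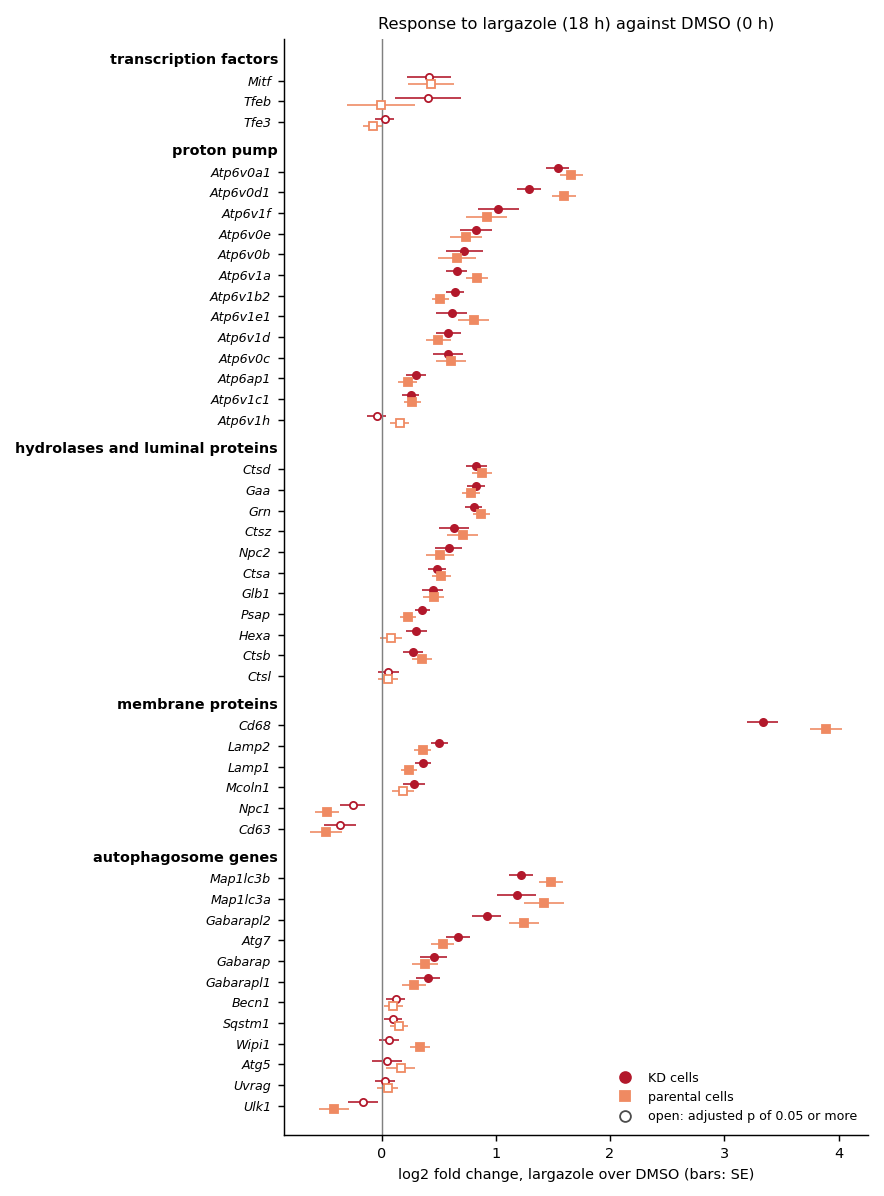
Response of the 45 genes to largazole, by role: the x axis is the log2 fold change of largazole at 18 h over DMSO at 0 h, circles are KD cells, squares are parental cells, bars are SE and open symbols have an adjusted p of 0.05 or more. Pump genes lie right of 0 except Atp6v1h in KD cells, and Cd68 stands furthest right at 3.33 and 3.89.

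Promoter windows running from 250 bases before to 50 bases after the transcription start were in the RefSeq table (GRCm38.p6) for 38 of the 45 genes. The E-box core CACGTG, searched on both strands, stood in 13 of these 38 (34.2%), against 2187 of 27025 genes in the table (8.09%). The longer palindrome TCACGTGA, each copy of which contains the core, stood in 6 (15.8%), against 1.12% of the table. The related CATGTG stood in 3 (7.89%), against 15.9%. The promoter table also holds genes that were not tested here, whereas all 38 were tested. Among the tested genes in that table, 1118 held CACGTG and 8405 did not, and 211 held TCACGTGA and 9312 did not. Core-bearing windows belonged to 4 of 10 pump genes, 5 of 10 hydrolase and luminal genes, 2 of 5 membrane genes, 2 of 10 autophagosome genes and 0 of the 3 transcription factor genes. The stretches below are shown because they carry the core in genes of 4 of the 5 roles, with the core in capitals, 5′ to 3′ on the gene's strand and ending before the transcription start.
Atp6v1a (chr16:44139360-44139415, minus strand): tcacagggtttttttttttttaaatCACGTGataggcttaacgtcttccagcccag
Atp6v0b (chr4:117887330-117887390, minus strand): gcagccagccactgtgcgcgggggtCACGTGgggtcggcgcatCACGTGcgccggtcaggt
Ctsa (chr2:164833736-164833772, plus strand): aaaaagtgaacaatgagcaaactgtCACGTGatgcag
Ctsd (chr7:142387895-142387950, minus strand): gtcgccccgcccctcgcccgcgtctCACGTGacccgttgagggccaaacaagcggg
Gaa (chr11:119267798-119267853, plus strand): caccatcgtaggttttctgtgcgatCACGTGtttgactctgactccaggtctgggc
Ctsl (chr13:64370726-64370770, minus strand): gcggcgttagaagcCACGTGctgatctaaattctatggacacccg
Lamp1 (chr8:13159075-13159160, plus strand): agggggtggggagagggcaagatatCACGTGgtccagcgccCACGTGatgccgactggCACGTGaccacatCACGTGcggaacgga
Mcoln1 (chr8:3500423-3500504, plus strand): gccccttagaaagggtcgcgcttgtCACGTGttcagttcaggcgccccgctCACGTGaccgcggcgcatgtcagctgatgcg
Atg7 (chr6:114670939-114670994, plus strand): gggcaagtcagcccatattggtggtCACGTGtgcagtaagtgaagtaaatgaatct
Atg5 (chr10:44268300-44268338, plus strand): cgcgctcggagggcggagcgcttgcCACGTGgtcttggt
Lamp1 held 4 cores, the first of them starting 61 bases before the start and the last 15 bases before it. Ctsa, Ctsd, Mcoln1 and Atp6v0b held 2 cores each, of which the stretches of Ctsa and Ctsd show 1. The stretches of Ctsa, Ctsd, Mcoln1 and Atp6v1a include the longer palindrome.

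Genes with the core and genes without it were among those that rose. Of the 13 with it, 11 rose in KD and 10 in parental cells, and of the 25 without it, 17 rose in each genotype. Over all 1118 tested genes with the core, 19.9% rose in KD cells, against 24.7% of the 8405 without it, and 21.8% against 26.9% in parental cells. Ctsl and Atg5 hold the core and did not pass in either genotype, while Atp6v0a1 and Map1lc3b rose in both genotypes without it. A match is a run of letters and says nothing of binding.

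The transcription factor genes did not pass under largazole in either genotype. Tfeb, named for its part in lysosome biogenesis, had 7.87 and 4.99 CPM with largazole against 5.99 and 3.54 CPM with DMSO in KD cells. In parental cells Tfeb had 4.63 and 5.07 CPM with largazole against 4.73 and 4.99 CPM with DMSO. Its log2 fold changes were 0.40 ± 0.29 (adjusted p = 0.272) in KD and 0.00 ± 0.30 (adjusted p = 0.993) in parental cells. Replicates of both KD groups spread widely around these low levels, and the groups overlapped. Tfe3, the most abundant of the 3 per kilobase of exon, had 101 and 102 CPM with largazole against 102 and 96.5 CPM with DMSO in KD cells. In parental cells Tfe3 had 86.0 and 78.4 CPM with largazole against 87.2 and 86.2 CPM with DMSO. The log2 fold changes were 0.03 ± 0.08 (adjusted p = 0.805) in KD and -0.08 ± 0.08 (adjusted p = 0.472) in parental cells. The KD libraries overlapped between conditions, and the parental largazole libraries lay just below the parental DMSO ones. Mitf, the melanocyte and osteoclast member of the family, had 7.79 and 10.5 CPM with largazole against 7.18 and 6.56 CPM with DMSO in KD cells. In parental cells Mitf had 7.83 and 9.03 CPM with largazole against 6.58 and 5.94 CPM with DMSO. Both largazole libraries lay above both DMSO libraries in each genotype, but the differences of 0.42 ± 0.20 (adjusted p = 0.105) in KD and 0.43 ± 0.20 (adjusted p = 0.0957) in parental cells did not pass. Tfeb passed in KD cells (adjusted p = 0.0434 without KD largazole replicate 2), and Mitf in KD cells (adjusted p = 0.0209 without KD largazole replicate 1) and in parental cells (adjusted p = 0.0469 without KD largazole replicate 1). Melanocyte markers summed to at most 0.527 CPM in any library. The 6 osteoclast markers summed to 18.3 to 24.0 CPM with largazole against 35.5 to 39.4 CPM with DMSO in KD cells, and 12.6 to 13.01 CPM with largazole against 19.6 to 20.7 CPM with DMSO in parental cells, with at most 2 of the 6 averaging 1 CPM. They were lower with largazole and higher in KD cells, and their part in the Mitf values was not tested. Per kilobase of exon, Tfe3 stood at 11.0 CPM in KD largazole, against 1.47 for Mitf and 1.13 for Tfeb.

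The proton pump was the role with the highest share of raised genes: 12 of 13 rose in KD cells and 12 of 13 in parental cells. This was 92.3% in each, beside 25% and 26.9% of all genes. The median log2 fold changes were 0.64 in KD and 0.66 in parental cells. All 5 V0 genes rose in both genotypes, with medians of 0.82 in KD and 0.74 in parental cells, and 6 of 7 V1 genes, with medians of 0.61 and 0.51. The level summed over the 13 genes was 2261 ± 272 CPM with largazole against 1461 ± 42.1 CPM with DMSO in KD cells, and 2193 ± 15.8 CPM with largazole against 1376 ± 21.1 CPM with DMSO in parental cells (mean ± SD, n = 2 libraries each).

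Atp6v0a1 (chromosome 11, 101009452 to 101063719, plus strand, GRCm38), an isoform of the a subunit that lines the proton path, had 119.6 and 133 CPM with largazole against 42.5 and 44.1 CPM with DMSO in KD cells. In parental cells Atp6v0a1 had 132 and 138 CPM with largazole against 46.4 and 39.1 CPM with DMSO. Every largazole library held more than every DMSO library, by log2 fold changes of 1.54 ± 0.10 (adjusted p = 2.39e-06) in KD and 1.66 ± 0.10 (adjusted p = 1.53e-06) in parental cells. Atp6v0d1 (chromosome 8, 105524465 to 105566047, minus strand), which couples the V0 ring to the central stalk, had 162 and 139 CPM with largazole against 64.9 and 57.8 CPM with DMSO in KD cells. In parental cells Atp6v0d1 had 166 and 166 CPM with largazole against 57.7 and 52.2 CPM with DMSO. It too separated fully by condition, with 1.29 ± 0.10 (adjusted p = 6.99e-06) in KD and 1.60 ± 0.10 (adjusted p = 2.07e-06) in parental cells. Atp6v1f (chromosome 6, 29467718 to 29470512, plus strand), a subunit of the central stalk, had 96.3 and 62.6 CPM with largazole against 41.1 and 37.0 CPM with DMSO in KD cells. In parental cells Atp6v1f had 69.7 and 66.7 CPM with largazole against 39.3 and 32.8 CPM with DMSO. Its KD largazole replicates lay far apart, yet both were above all DMSO libraries, and the log2 fold changes were 1.02 ± 0.18 (adjusted p = 0.00108) in KD and 0.92 ± 0.18 (adjusted p = 0.00201) in parental cells.

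The ATP-hydrolysing core rose in both genotypes, with Atp6v1a, the catalytic A subunit, at 0.66 ± 0.09 in KD and 0.83 ± 0.09 in parental cells, and Atp6v1b2, the B subunit, at 0.64 ± 0.08 and 0.51 ± 0.08. Of the membrane sector, Atp6v0c, its main proteolipid, changed by 0.58 ± 0.13 in KD and 0.61 ± 0.13 in parental cells, Atp6v0b by 0.73 ± 0.17 and 0.66 ± 0.17, and the small subunit Atp6v0e by 0.82 ± 0.14 and 0.74 ± 0.14. The stalk genes Atp6v1e1 and Atp6v1d changed by 0.61 ± 0.14 and 0.59 ± 0.11 in KD and by 0.81 ± 0.14 and 0.50 ± 0.11 in parental cells. The smallest passing changes belonged to Atp6ap1, an accessory subunit, at 0.30 ± 0.09 (adjusted p = 0.0146) in KD and 0.23 ± 0.09 (adjusted p = 0.0479) in parental cells, and Atp6v1c1, the C subunit, at 0.26 ± 0.07 (adjusted p = 0.017) in KD and 0.27 ± 0.07 (adjusted p = 0.0136) in parental cells. Atp6v1h, the regulatory H subunit, had 63.9 and 59.1 CPM with largazole against 63.4 and 63.4 CPM with DMSO in KD cells. In parental cells Atp6v1h had 71.5 and 72.5 CPM with largazole against 65.1 and 63.8 CPM with DMSO. It was the pump gene that did not pass in either genotype, with -0.04 ± 0.08 (adjusted p = 0.697) in KD and 0.16 ± 0.08 (adjusted p = 0.137) in parental cells.

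Some pump calls depended on single libraries. In KD cells Atp6ap1 was lost (adjusted p between 0.0698 and 0.0804 without KD DMSO replicate 1 or 2), as was Atp6v1c1 (adjusted p between 0.0756 and 0.0998 without KD DMSO replicate 1 or 2). In parental cells the calls lost were those of Atp6ap1 (adjusted p between 0.0828 and 0.242 without parental largazole replicate 1 or 2, KD DMSO replicate 1 or 2 or parental DMSO replicate 1 or 2), Atp6v1c1 (adjusted p between 0.0535 and 0.115 without parental largazole replicate 1 or 2 or parental DMSO replicate 1 or 2), Atp6v0b (adjusted p between 0.0571 and 0.0628 without parental largazole replicate 1 or parental DMSO replicate 2) and Atp6v1d (adjusted p = 0.0546 without parental DMSO replicate 2). With all 8 libraries the parental call of Atp6ap1 was also lost under RLE scaling (adjusted p = 0.0547), without a filter (0.0867) and with DESeq2 (0.0799). Atp6v0a1, Atp6v0d1, Atp6v0c, Atp6v0e, Atp6v1a, Atp6v1b2, Atp6v1e1 and Atp6v1f passed in both genotypes in every setting tried. For Atp6v0c the deposited values differed from a whole number by more than 0.01 in 4 of 8 libraries.

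Per kilobase of exon, which allows levels of different genes to be set side by side, Atp6v0c was the most abundant pump gene in every group, at 142 CPM per kb with largazole against 94.8 with DMSO in KD cells. In parental cells it stood at 129.5 with largazole against 85.0 with DMSO. The lowest was Atp6v1h in KD cells, at 6.31 with largazole against 6.50 with DMSO, and in parental cells with largazole, at 7.39. In parental cells with DMSO it was Atp6v0a1, at 6.52. Atp6v0a1 and Atp6v1h were close in the DMSO groups, and under largazole Atp6v0a1 reached 19.2 CPM per kb in KD and 20.6 in parental cells. Levels per kilobase rest on the union of annotated exons, which may be longer than the transcripts these cells make.

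**Figure D2:**
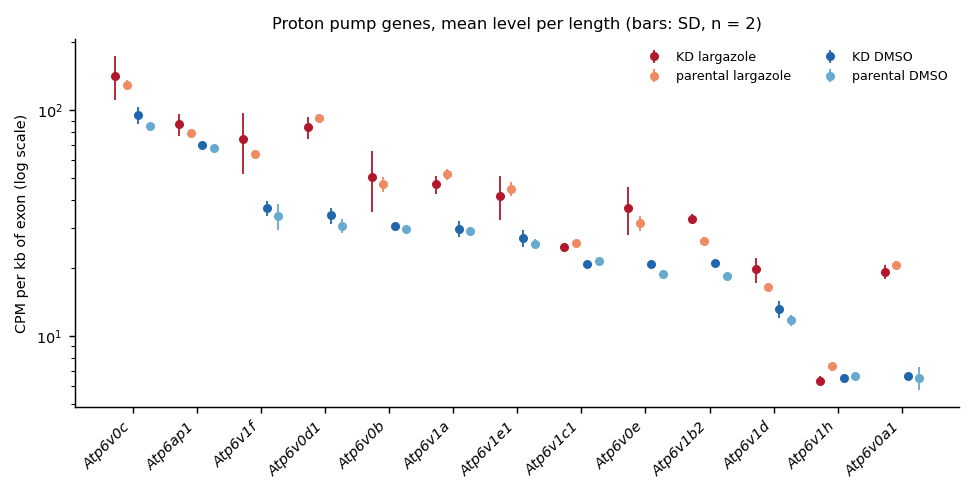
Mean level of the 13 pump genes per kilobase of exon on a log axis, by group, with bars for SD (n = 2 libraries). Atp6v0c is highest at 142 CPM per kb in KD largazole, and Atp6v0a1 lies well above Atp6v1h with largazole but beside it in the DMSO groups.

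Among the hydrolases and other luminal proteins 10 of 11 rose in KD and 9 of 11 in parental cells, with medians of 0.48 and 0.51. These were 90.9% and 81.8%, beside 25% and 26.9% of all genes. The summed level was 9403 ± 913 CPM with largazole against 7424 ± 260.1 CPM with DMSO in KD cells, and 8188 ± 191 CPM with largazole against 6426 ± 148 CPM with DMSO in parental cells (mean ± SD, n = 2 libraries each). Ctsd (chromosome 7, 142375911 to 142388038, minus strand), the main aspartic protease of the lysosome, had 1389.8 and 1159 CPM with largazole against 747 and 689.8 CPM with DMSO in KD cells, and 1199.6 and 1189 CPM with largazole against 648 and 650.5 CPM with DMSO in parental cells, a rise of 0.83 ± 0.09 (adjusted p = 6e-05) in KD and 0.88 ± 0.09 (adjusted p = 4.19e-05) in parental cells. Both largazole groups lay far above both DMSO groups. Gaa, the acid glucosidase that clears glycogen, had 189.8 and 209.9 CPM with largazole against 112 and 114 CPM with DMSO in KD cells. In parental cells Gaa had 195 and 188 CPM with largazole against 112 and 110.4 CPM with DMSO. Its replicates were tight and its response was 0.82 ± 0.08 (adjusted p = 2.25e-05) in KD and 0.79 ± 0.08 (adjusted p = 3.09e-05) in parental cells. Grn, the precursor of progranulin and the lysosomal granulins, had 694 and 675 CPM with largazole against 411 and 372 CPM with DMSO in KD cells. In parental cells Grn had 674 and 663 CPM with largazole against 363 and 367 CPM with DMSO. The 4 largazole libraries lay within a narrow band above the 4 DMSO ones, with log2 fold changes of 0.81 ± 0.07 (adjusted p = 1.7e-05) in KD and 0.87 ± 0.07 (adjusted p = 1.05e-05) in parental cells.

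Smaller rises were seen for Ctsz, a carboxypeptidase of the cathepsin family, at 0.63 ± 0.13 in KD and 0.71 ± 0.13 in parental cells, Npc2, the luminal cholesterol carrier, at 0.59 ± 0.12 and 0.51 ± 0.12, Ctsa, the protective carboxypeptidase, at 0.48 ± 0.08 and 0.52 ± 0.08, and Glb1, the lysosomal beta-galactosidase, at 0.45 ± 0.09 and 0.45 ± 0.09. Psap, the saposin precursor, changed by 0.36 ± 0.07 in KD and 0.23 ± 0.07 in parental cells, and the cysteine protease Ctsb by 0.28 ± 0.09 and 0.36 ± 0.09. Hexa, the alpha subunit of beta-hexosaminidase, passed in KD cells at 0.31 ± 0.09 (adjusted p = 0.0218) and not in parental cells at 0.08 ± 0.09 (adjusted p = 0.484), and the difference between these responses, 0.22 ± 0.13, did not pass either (adjusted p = 0.743). Ctsl, a cysteine protease, had 3518 and 2983 CPM with largazole against 3173 and 3069 CPM with DMSO in KD cells. In parental cells Ctsl had 2756 and 2628 CPM with largazole against 2658 and 2517 CPM with DMSO. It was the most abundant of these genes in CPM, its libraries overlapped between conditions, and its changes of 0.06 ± 0.09 (adjusted p = 0.621) in KD and 0.06 ± 0.09 (adjusted p = 0.625) in parental cells did not pass. Per kilobase, Ctsl led in both DMSO groups, at 481 CPM per kb in KD and 399 in parental cells. Ctsd led in both largazole groups, at 542 in KD and 508 in parental cells.

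Calls in KD cells were lost for Hexa (adjusted p between 0.0856 and 0.0987 without KD largazole replicate 1 or KD DMSO replicate 1 or 2) and Ctsb (adjusted p between 0.0788 and 0.129 without KD DMSO replicate 1 or 2), and Ctsl passed there (adjusted p = 0.0184 without KD largazole replicate 2). In parental cells they were lost for Ctsb (adjusted p between 0.0615 and 0.0843 without parental largazole replicate 1 or parental DMSO replicate 2), Npc2 (adjusted p between 0.0504 and 0.0568 without parental largazole replicate 1 or parental DMSO replicate 1) and Psap (adjusted p between 0.079 and 0.127 without parental largazole replicate 1 or 2 or parental DMSO replicate 1 or 2). The annotated exons of Ctsd share 34.4% of their bases with Gm49369 on the same strand, those of Ctsl 26.8% with the antisense gene Gm47123, and those of Ctsb 12.8% with Fdft1 on the opposite strand, and the strand setting of the counting is not given in the sources used here. Gm49369 and Gm47123 are not among the deposited genes, while Fdft1 held 13069 counts over all libraries against 142954 for Ctsb. Deposited values of Ctsd, Ctsl and Ctsb were whole numbers in all 8 libraries. How reads from the shared bases were assigned was not tested.

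The 6 membrane proteins moved in both directions. In KD cells 4 rose and 0 fell (66.7%, beside 48.2% of all genes), and in parental cells 3 rose and 2 fell (83.3%, beside 49.6%). Cd68 (chromosome 11, 69664213 to 69666153, minus strand), a glycoprotein of the LAMP family best known from macrophages, had 47.5 and 41.1 CPM with largazole against 4.35 and 4.42 CPM with DMSO in KD cells. In parental cells Cd68 had 62.1 and 61.5 CPM with largazole against 3.92 and 4.39 CPM with DMSO. All 4 largazole libraries stood far above all 4 DMSO ones, and the rise of 3.33 ± 0.14 (adjusted p = 2.24e-07) in KD and 3.89 ± 0.14 (adjusted p = 6.6e-08) in parental cells was the largest change of the 45 genes in each genotype. Markers of macrophages and monocytes summed to 6.94 to 8.23 CPM with largazole against 4.28 to 5.60 CPM with DMSO in KD cells. In parental cells the sums were 7.49 to 8.70 CPM with largazole against 5.80 to 6.29 CPM with DMSO. Of these 14 markers 1 averaged at least 1 CPM in each group. Both libraries held 0 counts for 5 of them in KD largazole, 8 in parental largazole and 10 in either DMSO group. Among the 14, Tyrobp was at 0 in every library. Ptprc was between 0.539 and 0.857 CPM in the 4 largazole libraries and at 0 in the 4 DMSO libraries. The part of such cells in the Cd68 response was not tested.

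Lamp1 and Lamp2 are the main glycoproteins of the lysosomal membrane. Lamp1 had 1125 and 1044 CPM with largazole against 854 and 833 CPM with DMSO in KD cells. In parental cells Lamp1 had 930.2 and 917 CPM with largazole against 795 and 766 CPM with DMSO. The log2 fold changes were 0.36 ± 0.07 (adjusted p = 0.00207) in KD and 0.24 ± 0.07 (adjusted p = 0.0166) in parental cells. Lamp2 had 362 and 376 CPM with largazole against 252 and 268 CPM with DMSO in KD cells. In parental cells Lamp2 had 292 and 319 CPM with largazole against 237 and 239 CPM with DMSO. The changes were 0.51 ± 0.08 (adjusted p = 0.000416) in KD and 0.36 ± 0.08 (adjusted p = 0.00312) in parental cells. Both genes were higher in every largazole library than in the DMSO libraries of the same genotype. Mcoln1, the lysosomal cation channel, rose in KD cells (0.29 ± 0.10 (adjusted p = 0.0309)) and did not pass in parental cells (0.19 ± 0.10 (adjusted p = 0.133)).

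Cd63, a tetraspanin of late endosomes and exosomes, went the other way, with 631 and 449 CPM with largazole against 716 and 673 CPM with DMSO in KD cells. In parental cells Cd63 had 530.0 and 460.3 CPM with largazole against 711 and 676 CPM with DMSO. It fell in parental cells by a log2 fold change of -0.49 ± 0.14 (adjusted p = 0.0144), and in KD cells the difference of -0.36 ± 0.14 (adjusted p = 0.0509) missed the threshold. Npc1, which exports cholesterol from lysosomes with Npc2, had 84.4 and 93.4 CPM with largazole against 95.0 and 117 CPM with DMSO in KD cells. In parental cells Npc1 had 69.8 and 73.7 CPM with largazole against 101 and 99.3 CPM with DMSO. It fell in parental cells (-0.48 ± 0.11 (adjusted p = 0.00465)) and did not pass in KD cells (-0.25 ± 0.11 (adjusted p = 0.0758)). For both genes the largazole libraries lay below the DMSO libraries in each genotype, and the differences between responses were 0.12 ± 0.19 (adjusted p = 0.948) and 0.22 ± 0.15 (adjusted p = 0.79). In KD cells Cd63 passed (adjusted p = 9.85e-06 without KD largazole replicate 1) and Npc1 passed (adjusted p between 0.0163 and 0.022 without KD largazole replicate 2 or KD DMSO replicate 1), while Mcoln1 was lost (adjusted p between 0.059 and 0.144 without KD DMSO replicate 1 or 2 or parental DMSO replicate 1 or 2, and 0.0771 with DESeq2 on all libraries). In parental cells calls were lost for Cd63 (adjusted p between 0.0699 and 0.094 without parental largazole replicate 2 or parental DMSO replicate 1), Lamp1 (adjusted p between 0.084 and 0.156 without parental largazole replicate 1 or 2 or parental DMSO replicate 1 or 2) and Lamp2 (adjusted p = 0.0536 without parental largazole replicate 2).

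Of the 12 autophagosome genes 6 rose and 0 fell in KD cells (50%, near the 48.2% of all genes called). In parental cells 7 rose and 1 fell (66.7%, beside 49.6% of all genes). Of all genes 25% rose in KD and 26.9% in parental cells. The raised genes included the whole ATG8 family in the set, the small ubiquitin-like proteins that are joined to lipid on the autophagosome membrane: 5 of 5 rose in each genotype, with medians of 0.92 in KD and 1.25 in parental cells. Of the other 7 genes 1 rose in KD cells, and 2 rose and 1 fell in parental cells, with medians of 0.06 and 0.15. The summed level of the 12 genes was 2094 ± 225 CPM with largazole against 1582 ± 56.9 CPM with DMSO in KD cells, and 1973 ± 72.3 CPM with largazole against 1446 ± 9.92 CPM with DMSO in parental cells (mean ± SD, n = 2 libraries each).

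Map1lc3b (chromosome 8, 121590361 to 121598760, plus strand), which encodes the LC3B protein used as a marker of autophagosomes, had 444 and 356 CPM with largazole against 175 and 168 CPM with DMSO in KD cells. In parental cells Map1lc3b had 365 and 339 CPM with largazole against 123 and 128 CPM with DMSO. It rose by 1.22 ± 0.10 (adjusted p = 1.02e-05) in KD and 1.49 ± 0.10 (adjusted p = 3.18e-06) in parental cells, with all largazole libraries above all DMSO ones. Map1lc3a, its paralogue, had 63.0 and 46.9 CPM with largazole against 27.5 and 20.6 CPM with DMSO in KD cells. In parental cells Map1lc3a had 52.5 and 45.9 CPM with largazole against 19.1 and 17.7 CPM with DMSO. Map1lc3a rose by 1.18 ± 0.17 (adjusted p = 0.000326) in KD and 1.42 ± 0.18 (adjusted p = 0.000119) in parental cells. Per kilobase of exon the levels of Map1lc3a and Map1lc3b were close, at 46.5 and 53.2 CPM in KD largazole. In parental DMSO they were 15.6 and 16.7. Gabarapl2 had 159 and 116 CPM with largazole against 74.6 and 71.0 CPM with DMSO in KD cells. In parental cells Gabarapl2 had 162 and 153 CPM with largazole against 66.3 and 66.2 CPM with DMSO. Gabarapl2 rose by 0.92 ± 0.13 (adjusted p = 0.000274) in KD and 1.25 ± 0.13 (adjusted p = 4.11e-05) in parental cells. Each of these 3 genes separated by condition without overlap in both genotypes. The remaining ATG8 genes responded less. Gabarap had 269 and 208 CPM with largazole against 175 and 174 CPM with DMSO in KD cells. In parental cells Gabarap had 217 and 194 CPM with largazole against 155 and 161 CPM with DMSO. The changes were 0.45 ± 0.11 (adjusted p = 0.00838) in KD and 0.38 ± 0.11 (adjusted p = 0.02) in parental cells. Gabarapl1 had 234 and 186 CPM with largazole against 164 and 152 CPM with DMSO in KD cells. In parental cells Gabarapl1 had 179 and 169 CPM with largazole against 142 and 143 CPM with DMSO. The changes were 0.41 ± 0.11 (adjusted p = 0.00935) in KD and 0.29 ± 0.11 (adjusted p = 0.0442) in parental cells. KD largazole replicate 1 was the higher of its pair for all 5 genes.

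Atg7, the activating enzyme of ATG8 conjugation, rose by 0.67 ± 0.10 (adjusted p = 0.0005) in KD and 0.54 ± 0.10 (adjusted p = 0.00165) in parental cells. Wipi1, a phosphoinositide-binding protein of early autophagic membranes, had 90.3 and 97.6 CPM with largazole against 93.3 and 86.7 CPM with DMSO in KD cells. In parental cells Wipi1 had 78.1 and 71.7 CPM with largazole against 58.6 and 60.1 CPM with DMSO. It rose in parental cells (0.34 ± 0.09 (adjusted p = 0.011)), while its KD libraries overlapped between conditions (0.06 ± 0.09 (adjusted p = 0.594)), and the difference between responses was -0.27 ± 0.13 (adjusted p = 0.587). Ulk1, the kinase that starts autophagosome formation, fell in parental cells (-0.42 ± 0.13 (adjusted p = 0.0246)) and did not pass in KD cells (-0.16 ± 0.13 (adjusted p = 0.338)). Sqstm1, the cargo receptor p62, was the highest of the role per kilobase in every group but did not pass, at 0.10 ± 0.08 (adjusted p = 0.32) in KD and 0.15 ± 0.08 (adjusted p = 0.138) in parental cells. Neither did Becn1 (0.12 ± 0.08 and 0.10 ± 0.08) or Uvrag (0.03 ± 0.09 and 0.06 ± 0.09), parts of the lipid kinase complex, or Atg5 (0.04 ± 0.13 and 0.17 ± 0.13), part of the conjugation machinery, in KD and in parental cells in that order.

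Leaving out single libraries ended the calls of Gabarap in KD cells (adjusted p = 0.0509 without KD DMSO replicate 1) and Gabarapl1 in KD cells (adjusted p = 0.0737 without KD DMSO replicate 2). In parental cells it ended those of Gabarap (adjusted p between 0.078 and 0.149 without parental largazole replicate 1 or parental DMSO replicate 1 or 2), Gabarapl1 (adjusted p between 0.067 and 0.203 without parental largazole replicate 1 or 2, KD DMSO replicate 1 or 2 or parental DMSO replicate 1 or 2), Wipi1 (adjusted p between 0.0742 and 0.106 without parental largazole replicate 1 or parental DMSO replicate 1 or 2) and Ulk1 (adjusted p between 0.0586 and 0.142 without parental largazole replicate 1 or 2 or parental DMSO replicate 1 or 2). With all libraries Gabarapl1 was also lost there without a filter (adjusted p = 0.0771), and Ulk1 with upper-quartile scaling (0.055) or library totals (0.0708). Leaving out a library brought Ulk1 (adjusted p = 0.0105 without KD largazole replicate 2) and Sqstm1 (adjusted p = 0.0235 without KD largazole replicate 2) past the threshold in KD cells, and Sqstm1 in parental cells (adjusted p between 0.022 and 0.0329 without KD largazole replicate 1 or 2). Map1lc3a, Map1lc3b, Gabarapl2 and Atg7 passed in both genotypes in every setting tried. The exons of Becn1 share 43.9% of their bases with Cntd1, which held 90 counts over all libraries, and those of Gabarapl1 28.3% with a noncoding gene that held 10.

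**Figure D3:**
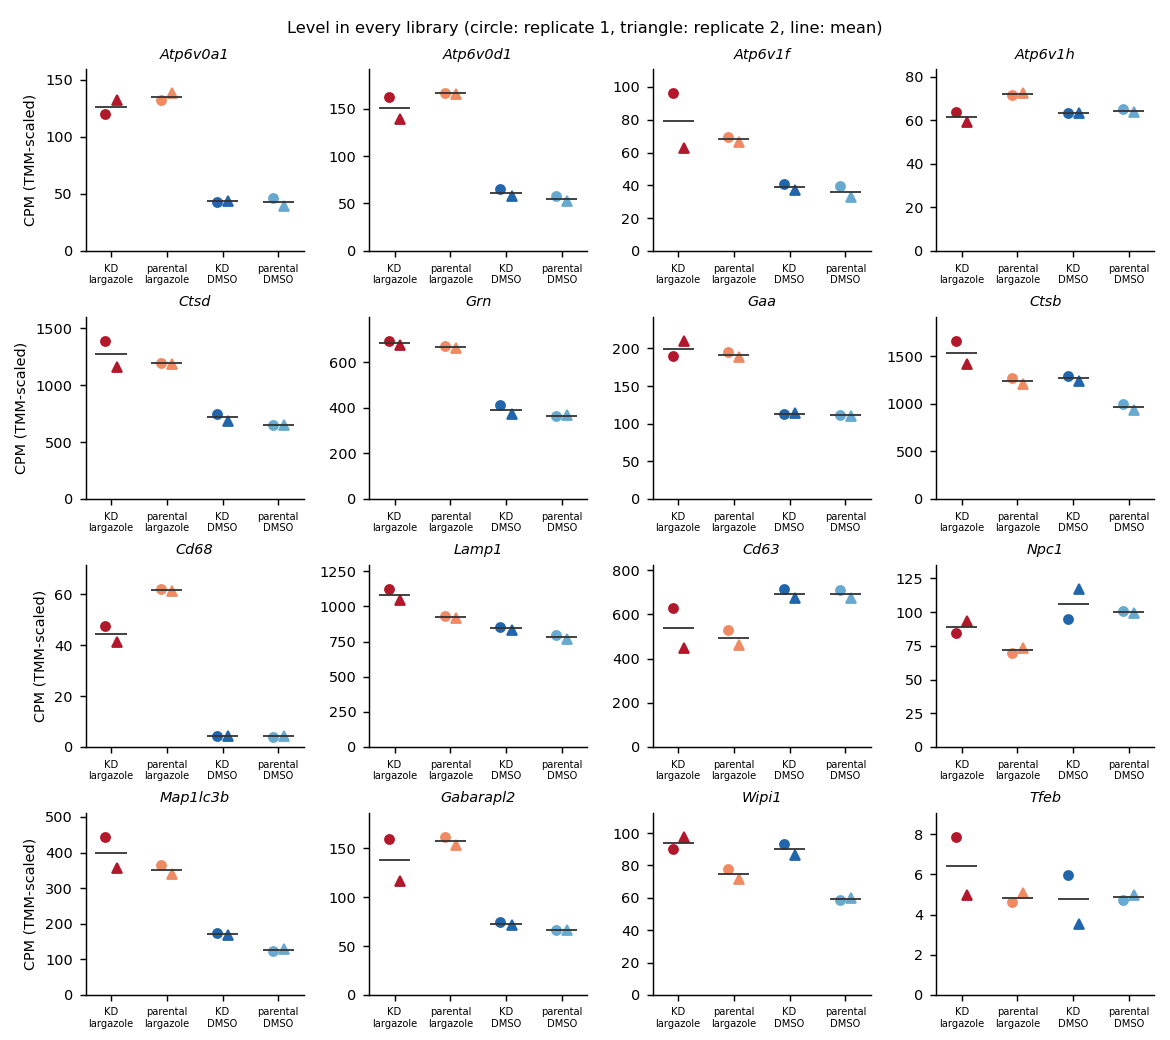
Level in CPM in each of the 8 libraries for 16 of the genes, 4 pump genes in the top line of panels, then hydrolases and luminal proteins, membrane proteins, and autophagosome genes with Tfeb. Circles are replicate 1, triangles replicate 2 and lines the mean, each axis starts at 0, and the spread of the KD largazole pair is visible for Atp6v1f, Gabarapl2 and Tfeb.

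Whether the drug response depended on the knockdown was tested as the difference between the KD and the parental response. None of the 45 genes passed (edgeR's quasi-likelihood test), 1 had an unadjusted p under 0.05, and DESeq2 called 0. Over all genes tested 0.208% passed, 0.032% with a larger and 0.176% with a smaller value in KD cells. The differences ran from -0.56 for Cd68 to 0.41 for Tfeb, with SEs of 0.0942 to 0.412 and a median SE of 0.143. For Cd68 the difference of -0.56 ± 0.21 had an unadjusted p of 0.0221 and an adjusted p of 0.471. Without KD largazole replicate 1 the smaller KD responses of Gabarapl2 (-0.57, adjusted p = 0.00959) and Map1lc3b (-0.43, adjusted p = 0.0222) passed, where 3.35% of all genes did, and with both replicates these differences were -0.33 ± 0.18 (adjusted p = 0.695) and -0.27 ± 0.14 (adjusted p = 0.677).

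The knockdown itself was compared with parental cells in each condition. Differences were small: every called change was under 2-fold. Under largazole 8 genes were higher and 1 lower in KD cells (20%), near the 18.3% of all genes called in that comparison (8.51% higher and 9.81% lower). In DMSO 5 were higher and 0 lower (11.1%), beside 11% of all genes (7.01% higher and 4.02% lower). Median log2 fold changes were 0.13 under largazole and 0.12 in DMSO, beside -0.00 and 0.00 over all genes. Libraries of the groups did not overlap for 18 higher and 5 lower genes under largazole (51.1%, beside 53.4% of all genes) and for 26 higher and 6 lower genes in DMSO (71.1%, beside 60.9%). Both comparisons use separate libraries, and 4 genes, Ctsb, Glb1, Wipi1 and Uvrag, passed in both and were higher in KD cells in both (8.89%, near the 7.73% of all genes that passed in both in 1 direction). The summed fibroblast and osteoclast markers were also higher in the KD libraries of both conditions, and their part in these differences was not tested. At most 2 of the 6 osteoclast markers averaged 1 CPM, and that list shares genes with the further lysosomal hydrolases read below.

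Wipi1 had 90.3 and 97.6 CPM in KD cells against 78.1 and 71.7 CPM in parental cells under largazole, and 93.3 and 86.7 CPM in KD cells against 58.6 and 60.1 CPM in parental cells in DMSO. It was higher in all KD libraries than in the parental ones of the same condition, by 0.33 ± 0.09 (adjusted p = 0.0295) under largazole and 0.60 ± 0.09 (adjusted p = 0.00215) in DMSO. Ctsb had 1658 and 1414 CPM in KD cells against 1265 and 1209 CPM in parental cells under largazole, and 1294 and 1238 CPM in KD cells against 996 and 935 CPM in parental cells in DMSO, with 0.31 ± 0.09 (adjusted p = 0.0344) under largazole and 0.39 ± 0.09 (adjusted p = 0.0192) in DMSO. Glb1 had 109.7 and 101 CPM in KD cells against 88.3 and 78.3 CPM in parental cells under largazole, and 78.4 and 76.2 CPM in KD cells against 61.4 and 60.2 CPM in parental cells in DMSO, with 0.34 ± 0.09 (adjusted p = 0.0271) under largazole and 0.35 ± 0.09 (adjusted p = 0.0373) in DMSO. For both enzymes each KD pair lay above its parental pair. Uvrag, a regulator of autophagosome maturation, had 86.4 and 95.6 CPM in KD cells against 72.7 and 69.5 CPM in parental cells under largazole, and 91.6 and 86.6 CPM in KD cells against 65.4 and 71.5 CPM in parental cells in DMSO. These pairs did not overlap either, and the differences were 0.36 ± 0.09 (adjusted p = 0.0229) under largazole and 0.38 ± 0.09 (adjusted p = 0.025) in DMSO. Map1lc3b was higher in KD cells in DMSO (0.45 ± 0.10 (adjusted p = 0.0204)), where its pairs stood apart, and overlapped under largazole (0.19 ± 0.10 (adjusted p = 0.243)).

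Cd68 was the gene of the set that was lower in KD cells under largazole, with 47.5 and 41.1 CPM in KD cells against 62.1 and 61.5 CPM in parental cells under largazole (-0.48 ± 0.11 (adjusted p = 0.0125)). In DMSO its pairs overlapped (0.07 ± 0.18 (adjusted p = 0.851)). Higher under largazole but not passing in DMSO were Atp6v1b2 (0.32 ± 0.08 (adjusted p = 0.018) under largazole, 0.19 ± 0.08 (adjusted p = 0.165) in DMSO), Tfe3 (0.30 ± 0.08 (adjusted p = 0.0303) under largazole and 0.20 ± 0.08 (adjusted p = 0.166) in DMSO), Lamp2 (0.27 ± 0.08 (adjusted p = 0.0322) under largazole and 0.13 ± 0.08 (adjusted p = 0.344) in DMSO) and Lamp1 (0.23 ± 0.07 (adjusted p = 0.047) under largazole and 0.11 ± 0.07 (adjusted p = 0.379) in DMSO). Of these, Atp6v1b2 had 181 and 168 CPM in KD cells against 138 and 143 CPM in parental cells under largazole, and 113 and 110.0 CPM in KD cells against 97.9 and 98.4 CPM in parental cells in DMSO. In both conditions its KD pair lay above its parental pair. Lamp1, Lamp2 and Tfe3 likewise showed KD pairs above parental pairs in both conditions. A pass in 1 condition alone does not show that the conditions differ, and the test of that difference is the one between responses given above.

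These knockdown calls were less firm than those of the drug. Under largazole all 9 were lost without parental largazole replicate 1 (adjusted p from 0.061 to 0.24) and without replicate 2 (from 0.0714 to 0.217). Counts were 16 without KD largazole replicate 1 and 25 without replicate 2, 3 without KD DMSO replicate 1 and 6 without replicate 2, and 3 without either parental DMSO replicate. The shares of all genes called moved too, to 26.2% and 32.7%, 14.1% and 14.0%, and 12.3% and 12.3% in that order, and to 6.63% and 6.55% without parental largazole replicate 1 and 2. In DMSO the counts were 10 without KD largazole replicate 1, 8 without replicate 2, 3 without either parental largazole replicate, 1 without either KD DMSO replicate, 0 without parental DMSO replicate 1 and 1 without replicate 2. Of all genes 23.2% and 23.2%, 7.74% and 7.69%, 3.56% and 4.68%, and 3.2% and 3.1% were called in these settings. There Wipi1 was lost without parental DMSO replicate 1 alone (adjusted p = 0.0545). Ctsb and Map1lc3b were lost when any 1 of the 4 DMSO libraries was left out, with adjusted p up to 0.204 and 0.179, and Glb1 and Uvrag when any 1 DMSO or parental largazole library was, with adjusted p up to 0.262 and 0.283. With all libraries Glb1 was lost in DMSO with DESeq2 (adjusted p = 0.0573) and without a filter (0.0607). Under largazole Lamp1 was lost with DESeq2 (0.058), and Lamp1, Lamp2 and Wipi1 with library totals in place of TMM (0.0513, 0.0695 and 0.0534).

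**Figure D4:**
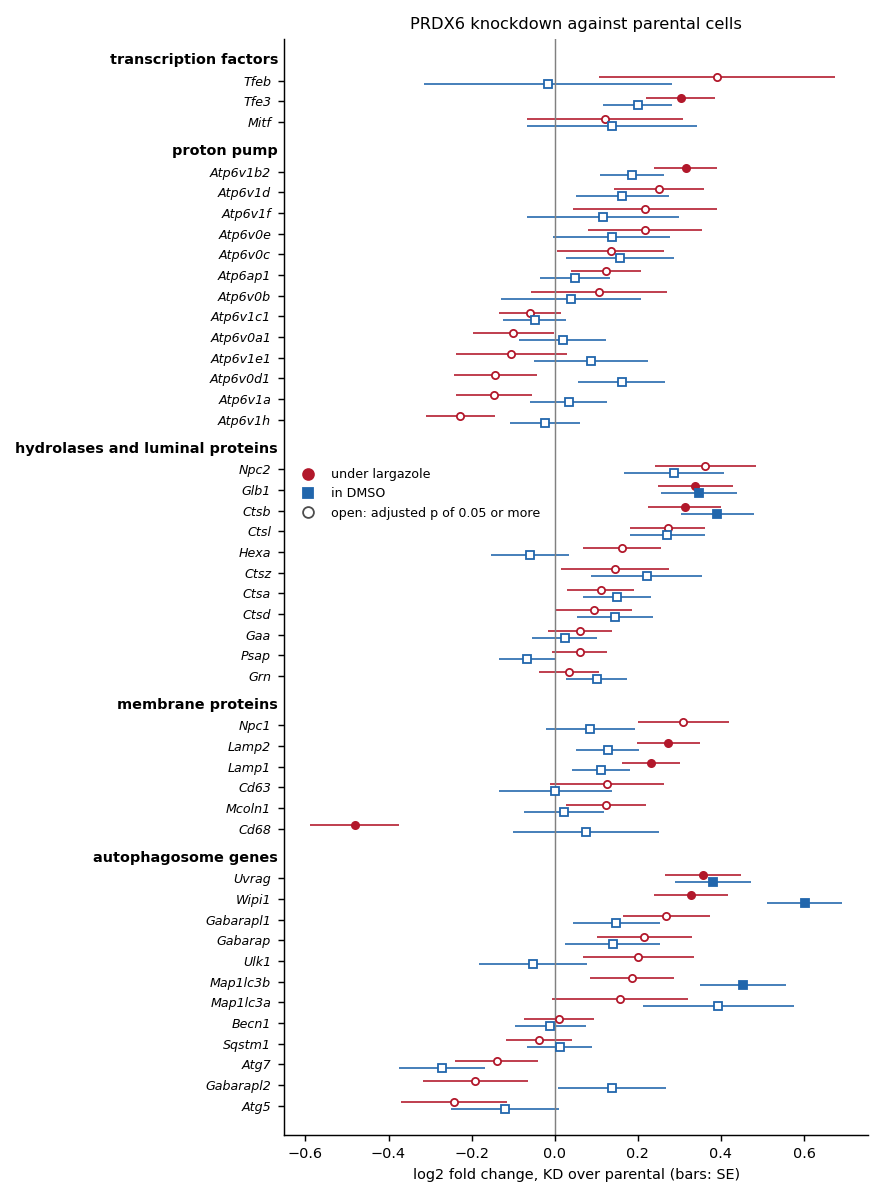
Difference between KD and parental cells for the 45 genes, by role: the x axis is the log2 fold change of KD over parental, circles are under largazole, squares in DMSO, bars are SE and open symbols have an adjusted p of 0.05 or more. Filled symbols are few, and Cd68 at -0.48 under largazole is the only one left of 0.

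Other genes of the same pathways outside the 45 were read from 6 lists. Among all genes tested 48.2% passed under largazole in KD cells, 25% higher and 23.2% lower. In parental cells 49.6% of all genes passed, 26.9% higher and 22.7% lower. Under largazole 24 of 40 further hydrolases and activators rose and 4 fell in KD cells (70%), with a median of 0.39. In parental cells 21 of them rose and 4 fell (62.5%), with a median of 0.32. Of 25 further membrane proteins and transporters 11 rose and 2 fell in KD (52%) and 9 rose and 2 fell in parental cells (44%). Of 13 further pump subunits and assembly factors 4 rose and 1 fell in KD (38.5%), and 4 rose and 2 fell in parental cells (46.2%). The share that rose was smaller in this list than among the 13 pump genes of the set. Of 44 further autophagy genes 15 rose and 5 fell in each genotype (45.5%, near the share of all genes). Of 11 enzyme sorting genes 5 rose and 4 fell in KD (81.8%) and 3 rose and 4 fell in parental cells (63.6%). Of 24 genes of mTORC1, Rag and folliculin control 4 rose and 3 fell in KD cells (29.2%). In parental cells 4 of these rose and 5 fell (37.5%), and both shares lay below those of all genes.

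Gm2a, an activator protein of ganglioside breakdown, had 27.8 and 28.9 CPM with largazole against 2.63 and 1.55 CPM with DMSO in KD cells. In parental cells Gm2a had 27.4 and 23.5 CPM with largazole against 1.04 and 1.35 CPM with DMSO. It rose by 3.74 ± 0.21 (adjusted p = 9.64e-07) in KD and 4.40 ± 0.24 (adjusted p = 7.5e-07) in parental cells. All 4 largazole libraries held more Gm2a than any DMSO library, while Gusb, the lysosomal glucuronidase, fell, with a log2 fold change of -1.04 ± 0.09 (adjusted p = 1.21e-05) in KD and -1.14 ± 0.09 (adjusted p = 7.39e-06) in parental cells. Trp53inp2, a nuclear and autophagosomal protein that binds ATG8 proteins, rose by 1.41 ± 0.09 (adjusted p = 1.42e-06) in KD and 1.71 ± 0.09 (adjusted p = 6.35e-07) in parental cells, and Atg16l2 fell, with -1.17 ± 0.28 (adjusted p = 0.00633) in KD and -1.76 ± 0.27 (adjusted p = 0.000437) in parental cells.

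The a subunit of the pump changed in its isoforms. Atp6v0a1 rose, as above, and Atp6v0a2 fell, with 62.5 and 65.6 CPM with largazole against 91.7 and 99.4 CPM with DMSO in KD cells, and 70.1 and 74.3 CPM with largazole against 90.4 and 86.5 CPM with DMSO in parental cells and log2 fold changes of -0.58 ± 0.09 (adjusted p = 0.000405) in KD and -0.29 ± 0.09 (adjusted p = 0.0169) in parental cells. Atp6v0a4, the kidney and inner ear isoform, had counts of 45 and 38 with largazole against 4 and 1 with DMSO in KD cells, and 56 and 48 with largazole against 2 and 4 with DMSO in parental cells. It passed in both genotypes (adjusted p = 0.000128 in KD, adjusted p = 8.39e-05 in parental cells) at a level of a few CPM. Sort1, a receptor that carries enzymes to lysosomes, had counts of 109 and 121 with largazole against 3 and 2 with DMSO in KD cells, and 85 and 68 with largazole against 2 and 0 with DMSO in parental cells, and passed in both (adjusted p = 2.93e-06 in KD, adjusted p = 9.48e-06 in parental cells). At so few DMSO counts no fold is given for either gene.

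With the knockdown 10 of the 40 further hydrolases and activators were higher and 0 lower under largazole (25%). In DMSO 12 were higher and 0 lower (30%). Of all genes tested 18.3% were called under largazole, 8.51% higher and 9.81% lower. The shares of all genes in DMSO were 11%, 7.01% higher and 4.02% lower. Ctsc, the protease that activates granule serine proteases, had 5.61 and 6.81 CPM in KD cells against 0.749 and 1.25 CPM in parental cells under largazole, and 2.63 and 1.99 CPM in KD cells against 0.296 and 0.0675 CPM in parental cells in DMSO. It was higher in KD cells by 2.62 ± 0.32 (adjusted p = 0.000598) under largazole and 3.66 ± 0.58 (adjusted p = 0.00286) in DMSO, on 4 and 1 counts in parental DMSO. Ctso, another cysteine protease, was higher under largazole, with 48.2 and 38.8 CPM in KD cells against 19.4 and 18.2 CPM in parental cells under largazole (1.21 ± 0.15 (adjusted p = 0.000608)). Of the 44 further autophagy genes 5 were higher and 5 lower in KD cells under largazole (22.7%, beside 18.3% of all genes). In DMSO 6 of them were higher and 0 lower (13.6%, beside 11% of all genes). The other lists lay below the shares of all genes in both conditions. Calls made up 8% of the further membrane proteins and transporters under largazole and 8% in DMSO. For the further pump subunits and assembly factors the shares were 7.69% and 7.69%. They were 9.09% and 0% for enzyme sorting, and 4.17% and 4.17% for mTORC1, Rag and folliculin control. Atg9a, the lipid scramblase of autophagic vesicles, was higher in both conditions, by 0.46 ± 0.09 (adjusted p = 0.00647) under largazole and 0.56 ± 0.09 (adjusted p = 0.00282) in DMSO.

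**Figure D5:**
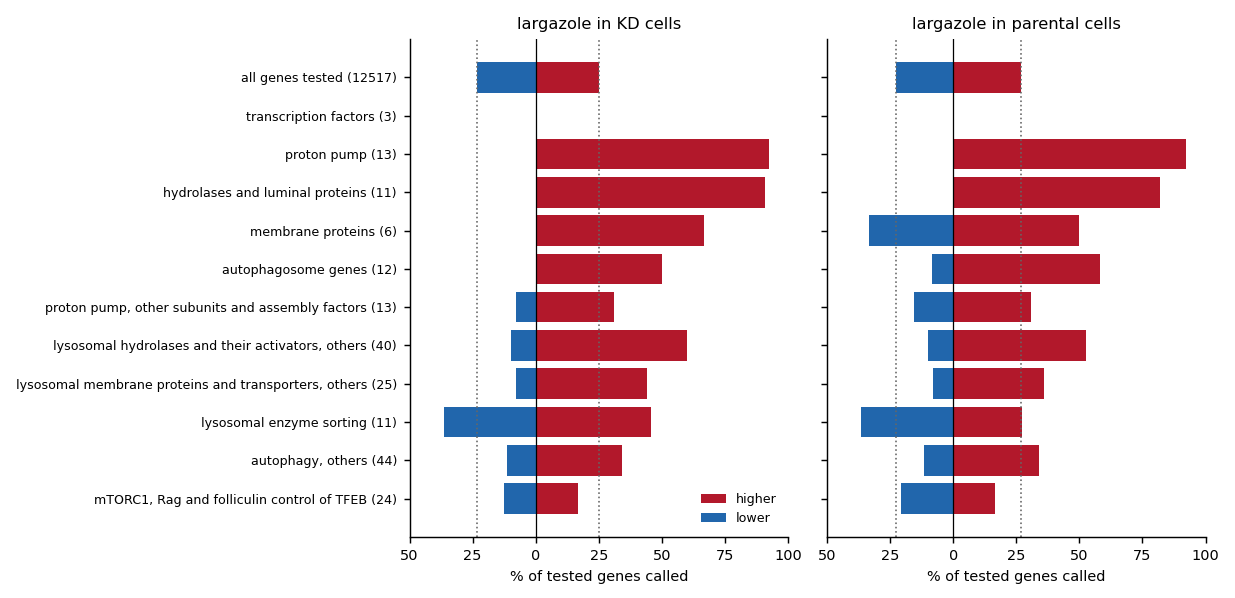
Percentage of tested genes called higher (right of 0) or lower (left of 0) under largazole, in KD cells on the left and parental cells on the right, for all genes tested, the 5 roles and the 6 further pathway lists, with the number of genes in brackets. Dotted lines mark the shares among all genes, 25% higher and 23.2% lower in KD cells and 26.9% higher and 22.7% lower in parental cells, and the pump bar reaches 92.3% in both.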

How the data were processed

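RNA of 8 A223 libraries was sequenced after polyA selection with a directional kit, per the labels' protocols. The authors deposited estimated counts per gene symbol, which were not normalized, as their mostly whole values with some fractions and differing totals show. The build was mm10, per the submitters' processing notes, and the aligner, counter, strand setting and annotation were not given in the sources used here. These expected counts were rounded to whole numbers. Symbols turned into dates (27) could not be named.

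Genes were kept by filterByExpr (minimum count 10, minimum total 15), scaled by TMM and tested two-sided with edgeR 4.0.16's quasi-likelihood F test in 1 fit of all 8 libraries with a mean per group, in R 4.3.3. Benjamini-Hochberg adjustment ran over all 12517 genes tested, at a threshold of 0.05. The SE of a log2 fold change is its size divided by the root of F. Whether replicates are separate cultures is not said in the labels. P-values therefore reflect only how far these libraries spread, and that spread may be technical.

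The 45 genes, the other lists and the settings were chosen with earlier results of these data known. Values in every library are given for the transcription factors, the ATG8 family and up to 3 passing genes per role and contrast with the largest change. Of other pathway genes up to 2 per list and direction may be named. A gene of these lists that meets the rule is not reported here. Atg5, Atg7, Becn1, Sqstm1, Atp6v1h and others outside this rule are named to account for all members. Exon lengths and overlaps come from GENCODE M21 (GRCm38) and promoters from RefSeq (GRCm38.p6). Alternatives were RLE, upper-quartile and no scaling, Rn45s removed, no or a stricter filter (minimum count 30), DESeq2 1.42.0, limma-voom (limma 3.58.1), the older quasi-likelihood method, a replicate block, only the libraries compared, and leaving out each library. The test was tried on simulated data first. Figures used matplotlib 3.10.9 in Python 3.11.15.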

Additional observations from a re-analysis of the deposited data

How the results depend on the processing

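Of 19 alternatives to the reported analysis none turned the direction of a called gene among the 45. With single libraries left out, the number of genes called ran from 26 to 37 for largazole in KD cells, 23 to 36 for largazole in parental cells, 0 to 25 for the knockdown under largazole, 0 to 10 for the knockdown in DMSO and 0 to 2 for the difference between responses, against reported counts of 32, 34, 9, 5 and 0. A group left with 1 library was assumed to vary like the others, and the shares of all genes called moved with the library left out. Under the other alternatives the counts, in the order of the reported ones, were 27 to 34, 32 to 36, 0 to 13, 4 to 12 and 0. The shares of all genes called there were 35.6% to 54%, 36.9% to 64.7%, 7.79% to 24.8%, 6.95% to 28.1% and 0.109% to 0.831%. With only the libraries compared, 0 genes passed for the knockdown under largazole and 12 for the knockdown in DMSO, where 7.79% and 28.1% of all genes did. In every setting 25 of 32 calls for largazole in KD cells and 20 of 34 in parental cells were kept, and 0 of 9 and 0 of 5 for the knockdown under largazole and in DMSO. With the replicate number as a block 34, 34, 13, 8 and 0 genes passed, where 54%, 55.7%, 24.8%, 16.2% and 0.831% of all genes did. The numbers do not establish pairs, since only 2 exist per group and the correlations of same-numbered deviations lay between -0.00 and 0.20. Cd63 in KD cells missed the threshold narrowly and passed with DESeq2 (adjusted p = 0.0225), limma-voom (adjusted p = 0.0416), Rn45s removed (adjusted p = 0.0492) and the block (adjusted p = 0.00394). Upper-quartile scaling raised the median log2 fold change of all genes to 0.11 for largazole in parental cells, where Atp6v1h, Mcoln1 and Sqstm1 then passed and Ulk1 did not. Over all genes the difference between responses was called for 26 genes, for 83 with DESeq2 and for 104 with the block. Low counts, between 48 and 91 for Tfeb and between 53 and 66 for Cd68 in the DMSO libraries, limit the precision of those genes. Protein alignments of the ATG8 family were not run.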
